A study of Mus musculus with 18 samples.

Results

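The effect of substrate stiffness at the highest tethering of matrix protein was examined in mouse embryonic stem cells (mESCs) grown on StemBond hydrogels. These are polyacrylamide gels that carry the co-factor 6-acrylamidohexanoic acid (AHA), whose carboxyl groups anchor matrix protein covalently, so that more AHA gives more anchoring points. Of the 18 libraries of the series, the 6 labelled Soft80 or Stiff80 were compared, that is 3 libraries from soft gels (about 750 Pa) and 3 from stiff gels (about 160 kPa), both made with 80 mM AHA (high AHA). All 6 came from wild-type E14 cells, of the 129m background as labelled, plated on fibronectin-coated gels and kept for 24 h in serum with LIF, the cytokine that holds mESCs undifferentiated. The 12 libraries from gels with 16 mM (low) and 48 mM (mid) AHA served only for comparison and for estimating the spread between replicates. E14 is 1 cell line, and the labels do not say whether the 3 samples of a condition were separate cultures, so p-values measure the spread between these samples, which may be technical.

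Between 5850621 and 9290261 reads were counted in genes in each of the 6 libraries. Soft80 replicate 1 stood apart from the rest of the series in its share of spike-in RNA. ERCC spike-in RNAs, which are added in a fixed amount, took 1.37% of its counts, against 0.607% to 0.725% in the 17 other libraries. Over all genes tested, the SD of its log2 difference in level from Soft80 replicates 2 and 3 was 0.42 and 0.41. The SD was 0.41 between those 2 libraries and 0.40 to 0.42 between stiff libraries at high AHA. Soft80 replicate 1 was left out of the comparison as given below, which leaves 2 soft against 3 stiff libraries. The count of calls in each gene list is also given with it kept where it differs. Of the genes described below as called between soft and stiff gels, only Pdgfrb and Adcy7 were not called with all 3 soft libraries. Whether the higher spike-in share had a part in its gene levels was not tested. Levels are TMM-scaled CPM, that is counts relative to the total over the protein-coding genes tested in a library, listed in the order of the replicates, so that the first of the 3 soft values is always the library left out. Fold changes are log2 values, soft minus stiff, ± the standard error (SE). Genes are said to be called, to rise or to fall where edgeR's quasi-likelihood test gave a p below 0.05 after Benjamini-Hochberg adjustment over 13438 genes.

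Cells sense stiffness through integrins, receptors that bind matrix outside the cell and are coupled through focal adhesion proteins to contractile actin bundles. Tension on these links is known to feed the kinase ERK and the co-activators YAP and MRTF, which drive their own sets of target genes. In mESCs, ERK activity pushes cells out of the naïve state, which is held by a network of transcription factors that includes Nanog, Esrrb, Tfcp2l1, Tbx3 and the Klf factors.

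Few genes were called between soft and stiff gels at high AHA. Of 13438 genes tested, 113 were called (0.841%). On soft gels, 55 of them were higher (0.409% of the genes tested) and 58 lower (0.432%). Without adjustment, 1405 genes had a p under 0.05. The changes were small, with a median log2 fold change of 0.37 among the higher and -0.29 among the lower genes, while the median over all genes tested was close to 0. With all 3 soft libraries, 339 genes were called (2.52%), 158 higher (1.18%) and 181 lower (1.35%), and these held 54 of the 55 higher and 56 of the 58 lower genes. Leaving out Soft80 replicate 2 or 3 in place of replicate 1 gave 386 and 257 calls, so the set of 2 soft libraries used here gave the fewest. The count also depended on single stiff libraries: it was 51 without Stiff80 replicate 3, 82 without Stiff80 replicate 1 and 103 without Stiff80 replicate 2. Leaving out Soft80 replicate 2 or 3 as well as replicate 1 leaves 1 soft library against 3. A call lost in such a fit, as given below, does not by itself show that the gene rests on that library. Cd55, for instance, had a fold change of 0.67 with 2 soft libraries and 0.67 without Soft80 replicate 2. The called genes were well above the median level of all genes, at a median of 115 CPM for the higher and 175 CPM for the lower genes against 25.1 CPM. The shares of all genes called, 0.841% or 2.52% with all 3 soft libraries, are the background for the counts in each list below.

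A group of naïve pluripotency factors was higher on soft gels. Of the 15 listed, all tested, 5 rose and none fell, where 0.409% of all genes rose, and 14 of the 15 fold changes lay above 0 with a median of 0.28. Nanog, a homeodomain factor at the core of the network, was at 119, 146 and 142 CPM on soft and at 101, 102 and 103 CPM on stiff gels. All 3 soft libraries lay above all stiff ones, although the library with the high spike-in share was the lowest of the 3. Its fold change was 0.50 ± 0.07 (edgeR adjusted p = 1.49e-06), or 0.41 ± 0.07 with all 3 soft libraries (edgeR adjusted p = 1.23e-05). The nuclear receptor gene Esrrb was at 331, 301 and 293 CPM on soft and 249, 229 and 247 CPM on stiff gels, a fold change of 0.29 ± 0.05 (edgeR adjusted p = 2.76e-04). Here the library left out was the highest of all 6. Tfcp2l1, which encodes a factor downstream of LIF, also had its highest value in that library, with 246, 204 and 218 CPM on soft and 176, 174 and 169.6 CPM on stiff gels and a fold change of 0.28 ± 0.06. Tbx3, a T-box factor, rose by 0.38 ± 0.08 and the orphan nuclear receptor gene Nr5a2 by 0.41 ± 0.10, and neither had a soft library within the stiff range. Nanog and Esrrb were called under all 18 alternatives tried. Tfcp2l1, Tbx3 and Nr5a2 lost their call without Soft80 replicate 3 (edgeR adjusted p = 0.18, 0.17 and 0.21), and Nr5a2 also without Stiff80 replicate 1 (edgeR adjusted p = 0.12).

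With the third soft library, 3 more naïve genes were called, Klf2, Klf4 and Tcl1, so that 8 of the 15 rose. Klf2, which encodes a Krüppel-like factor, was at 326, 316 and 302 CPM on soft against 249.5, 232 and 278 CPM on stiff gels, with an edgeR adjusted p of 0.073 that became 0.00468 with all 3 libraries and was also under the threshold in some other settings, for instance 0.0024 without Stiff80 replicate 3. For Klf4, the fold change was 0.25 ± 0.08 (edgeR adjusted p = 0.094, and 0.00956 with all 3), and for Tcl1, which encodes a co-activator of AKT kinase, it was 0.56 ± 0.17 (0.0819 and 0.0102). The remaining naïve genes were Dppa3, Prdm14, Fbxo15, Nr0b1, Klf5, Zfp42 and Stat3, with fold changes of 0.53, 0.33, 0.21, 0.19, 0.10, 0.09 and -0.01, and none of these 7 was called with or without the third library. The general pluripotency genes Pou5f1 (Oct4), Sox2 and Sall4, which stay on in both naïve and later pluripotent cells, were not called either. Pou5f1 was at 532, 575 and 544 CPM on soft and 518, 598 and 568 CPM on stiff gels, so that the groups overlapped, and its fold change was close to 0 (SE 0.05). Exons of other genes on the opposite strand cover 14.1% of its exonic bases. Sox2 and Sall4 had fold changes of 0.12 ± 0.05 and 0.13 ± 0.04 (edgeR adjusted p = 0.40 and 0.10).

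**Figure D1:**
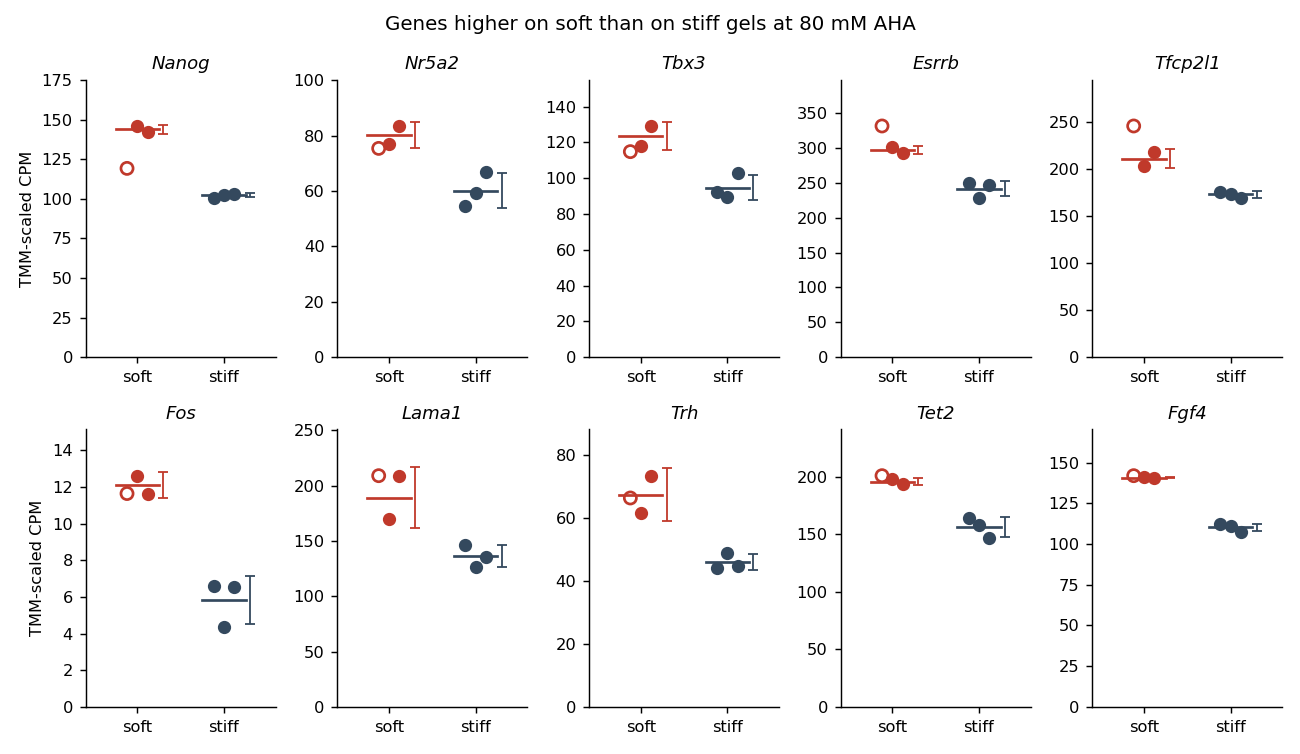
Level of 10 genes called higher on soft gels, in TMM-scaled CPM (vertical axis, from 0), with 1 point per library, soft in red and stiff in dark blue. The open circle is Soft80 replicate 1, which is not part of the mean (line) or the SD (bar), and in each panel it lies above all 3 stiff libraries.

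Formative genes mark the step that follows the naïve state. Of 6 tested, Dnmt3b fell and none rose, with a median of -0.14. Dnmt3b, a de novo DNA methyltransferase, was at 655, 662 and 652 CPM on soft and 734, 734 and 738 CPM on stiff gels, a tight but small difference of -0.16 ± 0.04 (edgeR adjusted p = 0.0394). Its call was lost on leaving out any 1 of the 5 libraries (edgeR adjusted p between 0.081 and 0.30). Pou3f1 and Lef1 had fold changes of -0.32 and -0.34, and Fgf5, at no more than 6.90 CPM, one of 0.81 ± 0.36. Otx2 and Sox4 were at -0.12 and -0.04, where exons of other genes on the opposite strand cover 54.6% of the exonic bases of Sox4, so part of its counts may come from there. With all 3 soft libraries, Pou3f1 joined Dnmt3b (edgeR adjusted p = 0.0316).

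Of 9 DNA methylation genes tested, 1 rose and 2 fell, where 0.841% of all genes were called. Tet2, an enzyme that oxidises methylcytosine and so starts its removal, was at 201, 198 and 194 CPM on soft and 164, 158 and 147 CPM on stiff gels. It rose by 0.33 ± 0.06 (edgeR adjusted p = 7.51e-04) and was called under all 18 alternatives. Dnmt3l, the cofactor of the de novo methyltransferases, was at 408, 419 and 399 CPM on soft and 455, 504.4 and 488 CPM on stiff gels and fell by 0.24 ± 0.05 (edgeR adjusted p = 0.00116, or 0.12 without Soft80 replicate 3), beside the fall of Dnmt3b.

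Among signalling ligands, 2 known from mESCs rose. Fgf4, the growth factor through which mESCs stimulate their own ERK pathway, was at 142, 141 and 141 CPM on soft and 112, 111 and 108 CPM on stiff gels. The replicates of each group lay close together and apart from the other group, and the fold change was 0.35 ± 0.07 (edgeR adjusted p = 0.00184). It was the 1 gene called of 10 FGF ligand and receptor genes, whose median was -0.11. Lefty1, a secreted inhibitor of Nodal, was at 20.7, 21.7 and 25.4 CPM on soft and 17.8, 14.5 and 12.2 CPM on stiff gels, a rise of 0.65 ± 0.18 (edgeR adjusted p = 0.0444) that was lost without Soft80 replicate 2 or 3 or Stiff80 replicate 2 or 3 (edgeR adjusted p between 0.078 and 0.39). It was the 1 called of the 18 genes of the Nodal and BMP list, and with all 3 soft libraries 1 was called higher and 2 lower. The BMP ligand gene Bmp8b, which was not on that list, fell and is described with the largest changes. Of 19 Wnt genes, the repressor gene Tcf7l1 rose by 0.21 ± 0.05 (edgeR adjusted p = 0.0309) and the ligand gene Wnt7b fell by 0.36 ± 0.10 (edgeR adjusted p = 0.0368). Tcf7l1 lost its call on leaving out any 1 of the 5 libraries (edgeR adjusted p between 0.054 and 0.39), with fold changes between 0.16 and 0.25. Wnt7b lost it without any but Stiff80 replicate 2 (between 0.055 and 0.38), with fold changes between -0.43 and -0.29. Adding the third soft library gave 2 Wnt genes higher and 1 lower. None of 12 LIF and STAT3 genes was called, with or without the third soft library.

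Among integrin genes, the changes were falls. Of 11 tested, Itga3 and Itgb1 fell and none rose, where 0.432% of all genes fell. Of the 11 fold changes, 8 were below 0 with a median of -0.18. Itga3 (chromosome 11, 95044474 to 95076801, build GRCm38) encodes a laminin receptor subunit. It was at 329.7, 371 and 343 CPM on soft and 501.9, 498 and 545 CPM on stiff gels, the lowest stiff library lying far above the highest soft one. Its fold change of -0.53 ± 0.05 had the lowest edgeR adjusted p of all genes named here (8.47e-16) and was -0.57 ± 0.04 with all 3 soft libraries. Itgb1, the beta subunit shared by the fibronectin, collagen and laminin receptors, was at 371, 409 and 403 CPM on soft and 458, 464 and 479 CPM on stiff gels, a fold change of -0.20 ± 0.05 (edgeR adjusted p = 0.0134). Without Soft80 replicate 2 or 3 or Stiff80 replicate 3, Itgb1 was no longer called (edgeR adjusted p = 0.084, 0.17 and 0.11), while Itga3 always was. Adding the third soft library, with which 1.35% of all genes fell, raised the integrin count to 4.

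Focal adhesion and matrix genes followed no single direction. Of 24 focal adhesion plaque genes, 1 rose, Tns1, and none fell, while 18 of the 24 fold changes lay below 0 with a median of -0.10. Tns1 encodes a tensin that links integrins to actin, and was at 48.3, 51.9 and 49.8 CPM on soft and 39.3, 33.3 and 37.7 CPM on stiff gels, a rise of 0.46 ± 0.12 (edgeR adjusted p = 0.0359) that was lost without Soft80 replicate 2 or 3 or Stiff80 replicate 2 or 3 (between 0.097 and 0.23). With all 3 soft libraries, 2 plaque genes were called higher and 4 lower. Of 30 matrix and basement membrane genes, 1 rose and none fell, or 3 rose and 1 fell with all 3 soft libraries. That gene was Lama1, the alpha chain of the laminin made by early embryonic cells, at 209, 169.6 and 209 CPM on soft and 147, 127 and 135 CPM on stiff gels. Its fold change was 0.46 ± 0.07 (edgeR adjusted p = 9.64e-06, or 0.064 without Soft80 replicate 3). Lama1 is also made by primitive endoderm, an extraembryonic lineage that can arise in mESC cultures, and the summed markers of that lineage took the same order among the soft libraries (78.4, 53.7 and 77.0 CPM, against 56.7, 52.8 and 50.4 CPM on stiff gels). Their part in the rise of Lama1 was not tested.

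Several genes of actin filaments were lower on soft gels, with small changes. Of 30 actin filament and crosslinking genes, 6 fell and none rose, where 0.432% of all genes fell. Of the 30 fold changes, 26 were below 0 with a median of -0.14. With all 3 soft libraries, where 1.35% of all genes fell, 17 fell and the median was -0.19. Flnc, which encodes the crosslinker filamin C, was at 308, 330.3 and 360.1 CPM on soft and 516, 428 and 477 CPM on stiff gels, a fold change of -0.46 ± 0.07 (edgeR adjusted p = 2.19e-04), and it was called under all 18 alternatives. Synpo2l, an actin-bundling protein gene of striated muscle, had the largest fold change of the called members (-0.68 ± 0.17, edgeR adjusted p = 0.0142), with 14.6, 19.5 and 15.8 CPM on soft and 28.6, 26.0 and 30.4 CPM on stiff gels. The LIM-domain protein gene Pdlim7 had a fold change of -0.29 ± 0.06 and the alpha-actinin gene Actn4 of -0.17 ± 0.04 (edgeR adjusted p = 0.00308 and 0.0105). For both, as for Synpo2l, the call was lost without Soft80 replicate 3 (edgeR adjusted p = 0.33, 0.15 and 0.33) or Stiff80 replicate 3 (0.16, 0.094 and 0.10), and Actn4 also lost it without Soft80 replicate 2 (0.070). Tpm1, the tropomyosin that coats contractile filaments, was at 821, 937 and 908 CPM on soft and 1042, 1026 and 1073 CPM on stiff gels. The soft library left out was well below the other 2, so the fold change of -0.18 ± 0.04 (edgeR adjusted p = 0.00551) became -0.24 ± 0.04 with it. The call of Tpm1 was lost without Soft80 replicate 3 (0.18) or Stiff80 replicate 3 (0.079).

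Motor genes showed little difference. Of 17 myosin and contractility genes, 1 fell and none rose, and the median was close to 0. The gene was Myo1c, a single-headed myosin that ties actin to membranes, at 263, 312 and 289 CPM on soft and 362, 352 and 389 CPM on stiff gels (fold change -0.29 ± 0.05, edgeR adjusted p = 2.19e-04, or 0.072 without Soft80 replicate 3).

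**Figure D2:**
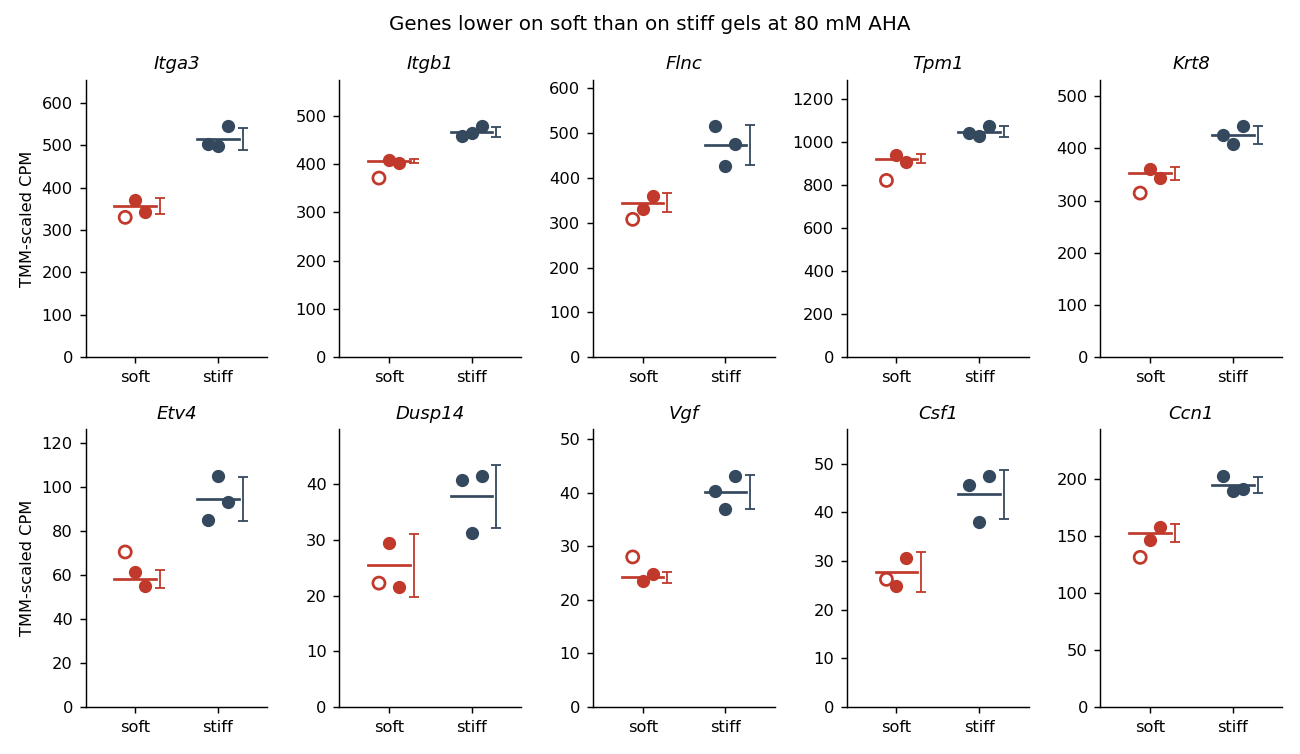
Level of 10 genes called lower on soft gels, in TMM-scaled CPM (vertical axis, from 0), with 1 point per library, soft in red and stiff in dark blue. The open circle is Soft80 replicate 1, which is not part of the mean (line) or the SD (bar), and in each panel it lies below all 3 stiff libraries.

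Keratins and some cell junction genes were also lower on soft gels. Of 29 intermediate filament and epithelial genes, 5 fell and none rose, or 8 fell and 1 rose with all 3 soft libraries. Over all genes, 0.432% fell, or 1.35% with all 3 soft libraries. The paired keratins of simple epithelia moved together. Krt8 was at 314, 361 and 344 CPM on soft and 425, 409 and 443 CPM on stiff gels, a fold change of -0.27 ± 0.05 (edgeR adjusted p = 2.76e-04), and Krt18 was at 575, 674 and 625 and 754, 729 and 773 CPM, a fold change of -0.21 ± 0.05 (edgeR adjusted p = 0.00308). In both, the soft library left out was the lowest of the 6. The tight junction genes Cldn6 and Cgn had fold changes of -0.42 ± 0.10 and -0.27 ± 0.07 (edgeR adjusted p = 0.0093 and 0.0142). Leaving out Soft80 replicate 3 took the call from all 4 of these genes (edgeR adjusted p between 0.052 and 0.34), and leaving out Stiff80 replicate 3 from Krt18, Cldn6 and Cgn (0.062, 0.13 and 0.092). Cldn6 also lost it without Soft80 replicate 2 (0.11) and Cgn without Stiff80 replicate 1 (0.063).

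Some genes on the list of ERK feedback targets fell. Of 21 tested, 3 fell (Etv4, Dusp14 and Ccnd1) and none rose, where 0.432% of all genes fell, and the median was -0.13. With all 3 soft libraries, where 1.35% of all genes fell, 6 on the list did. Etv4, an ETS factor switched on by FGF and ERK, was at 70.4, 61.2 and 55.2 CPM on soft and 85.1, 105 and 93.2 CPM on stiff gels. The fold change of -0.68 ± 0.09 (edgeR adjusted p = 1.25e-07) was called under all 18 alternatives. Dusp14, a phosphatase that acts on MAP kinases, was at 22.2, 29.4 and 21.5 CPM on soft and 40.7, 31.3 and 41.6 CPM on stiff gels, where the highest soft and lowest stiff library lay close together (fold change -0.57 ± 0.14, edgeR adjusted p = 0.0203, and 0.47, 0.11 and 0.16 without Soft80 replicate 3, Stiff80 replicate 1 and Stiff80 replicate 3). Cyclin D1, encoded by Ccnd1, is needed for entry into the cell cycle. Its gene was at 101, 99.0 and 119 CPM on soft and 140.2, 137 and 143 CPM on stiff gels, a fold change of -0.37 ± 0.07 (edgeR adjusted p = 0.00106, or 0.30 without Soft80 replicate 2). Exons of other genes on the opposite strand cover 23.4% of its exonic bases, and the strand setting of the counting is not given in the sources used here. None of 24 genes on the cell cycle list, which does not hold Ccnd1, was called, or 1 higher and 1 lower with all 3 soft libraries, with values of 0.02 ± 0.04 for Mki67 and 0.08 ± 0.04 for Top2a, both of which mark dividing cells. Cdc6, a replication licensing gene also outside that list and named after its values were seen, had a fold change of -0.30 ± 0.08 (edgeR adjusted p = 0.047).

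Of 20 genes on a list of SRF targets and immediate early genes, which answer growth factors quickly, 1 rose and 2 fell. Vgf, a secreted peptide precursor, was at 28.0, 23.5 and 24.8 CPM on soft and 40.2, 36.9 and 43.1 CPM on stiff gels, a fold change of -0.74 ± 0.14 (edgeR adjusted p = 5.46e-04) called under all 18 alternatives. Csf1, the macrophage growth factor, was at 26.2, 24.9 and 30.7 CPM on soft and 45.6, 38.1 and 47.6 CPM on stiff gels, a fold change of -0.67 ± 0.13 (edgeR adjusted p = 0.00106, or 0.16 without Soft80 replicate 2). Fos, a subunit of the AP-1 factor, went the other way, at 11.6, 12.6 and 11.6 CPM on soft and 6.60, 4.34 and 6.54 CPM on stiff gels. Its rise of 1.03 ± 0.26 (edgeR adjusted p = 0.0214) was the highest of the called genes with a mean of at least 5 CPM, but its level was low and the call was lost without Soft80 replicate 2 or 3 or Stiff80 replicate 2 or 3 (edgeR adjusted p between 0.062 and 0.18).

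Of 20 YAP and TEAD target genes, 3 fell and none rose (5 fell and 1 rose with all 3 soft libraries), with a median of -0.14. The share of all genes that fell was 0.432%, or 1.35% with all 3 soft libraries. Ccn1, a matrix-associated protein gene often used to read out YAP, was at 131, 147 and 158 CPM on soft and 203, 189.6 and 192 CPM on stiff gels, a fold change of -0.36 ± 0.07 (edgeR adjusted p = 2.19e-04, or 0.056 without Soft80 replicate 2). Ajuba, which encodes a LIM protein that restrains the LATS kinases, was at 255, 275 and 291 CPM on soft and 328, 314 and 328 CPM on stiff gels, a fold change of -0.20 ± 0.05. Amotl2, which encodes a scaffold that binds YAP, was at 396, 464 and 416 CPM on soft and 520.1, 472 and 499 CPM on stiff gels, a fold change of -0.18 ± 0.05. Both of these had an edgeR adjusted p of 0.038, and both lost the call without Soft80 replicate 3 (0.079 and 0.62), Stiff80 replicate 1 (0.12 and 0.22) or Stiff80 replicate 3 (0.16 and 0.13). Ajuba also lost it without Soft80 replicate 2 (0.39).

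The promoters of these 3 genes are shown because each holds GGAATG, the core sequence that TEAD factors bind, in the 300 bases from 250 before to 50 after the start in RefSeq. The sequences read 5′ to 3′ on the gene's own strand of build GRCm38.p6, and capitals mark GGAATG or its reverse complement CATTCC. That of Ccn1 lies at chr3:145649936-145650235 on the minus strand, that of Amotl2 at chr9:102717554-102717853 on the plus strand and that of Ajuba at chr14:54577612-54577911 on the minus strand.
Ccn1: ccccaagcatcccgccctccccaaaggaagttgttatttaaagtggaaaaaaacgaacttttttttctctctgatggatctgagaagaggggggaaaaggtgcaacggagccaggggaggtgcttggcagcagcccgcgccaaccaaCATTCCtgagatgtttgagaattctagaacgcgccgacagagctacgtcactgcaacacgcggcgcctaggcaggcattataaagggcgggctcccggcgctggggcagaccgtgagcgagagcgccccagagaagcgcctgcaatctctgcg
Amotl2: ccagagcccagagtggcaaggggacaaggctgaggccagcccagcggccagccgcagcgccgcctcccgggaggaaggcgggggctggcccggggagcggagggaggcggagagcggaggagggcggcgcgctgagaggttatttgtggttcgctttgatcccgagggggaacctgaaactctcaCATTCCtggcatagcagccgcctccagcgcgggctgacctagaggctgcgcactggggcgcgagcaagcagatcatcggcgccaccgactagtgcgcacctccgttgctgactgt
Ajuba: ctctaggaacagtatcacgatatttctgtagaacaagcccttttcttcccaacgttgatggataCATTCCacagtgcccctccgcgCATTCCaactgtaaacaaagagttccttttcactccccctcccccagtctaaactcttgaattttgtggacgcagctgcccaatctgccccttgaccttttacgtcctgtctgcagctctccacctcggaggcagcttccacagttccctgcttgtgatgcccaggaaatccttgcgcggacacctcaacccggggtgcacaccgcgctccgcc
The match starts 103 bases before the start of Ccn1 and 65 before that of Amotl2, and Ajuba holds 2 matches, the first of them starting 186 bases before its start.

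The TEAD motif was about as frequent among the higher as among the lower genes. It was found, on either strand, in at least 1 promoter of 11 of the 46 lower genes with a sequence (23.9%), of 10 of the 40 higher genes with one and of 1512 of 10516 tested genes (14.4%). Of the 6 genes described further on whose response differed between AHA concentrations, 5 had a sequence and 4 of these held it. The AP-1 motifs TGACTCA and TGAGTCA were held by 4 lower (8.70%) and 3 higher genes (7.50%) against 4.45% of tested genes, and the cyclic AMP response element TGACGTCA by 3 (6.52%) and 1 (2.50%) against 3.61%. Of the lower genes described here, Adcy7 and Myo1c held an AP-1 motif, Cldn6 a response element, and Flnc, Actn4, Itgb1, Tpm1, Dnmt3l and Cldn6 the TEAD motif, which Nr5a2, Syt14, Mcf2 and Renbp among the higher genes held too. The CArG box, the site of SRF, was held by 0 of 46 lower and 1 of 40 higher genes against 1.56% of tested genes. A match in such a window is a string of letters and not a binding site.

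Metabolic and stress genes gave few calls. The glucose transporter gene Slc2a1, at 533, 542 and 553 CPM on soft and 633, 632 and 636 CPM on stiff gels, was the 1 called of 24 glycolysis genes (2 with all 3 soft libraries, both lower), with a fold change of -0.21 ± 0.05 (edgeR adjusted p = 0.00275, or 0.084 without Soft80 replicate 2). Sod2, the mitochondrial superoxide dismutase, was the 1 called of 18 antioxidant genes (1 higher and 1 lower with all 3 soft libraries) and rose by 0.33 ± 0.08 (edgeR adjusted p = 0.0134, and between 0.053 and 0.20 without Soft80 replicate 2 or 3 or Stiff80 replicate 1 or 3). None of 21 ATF4 amino acid stress genes (Slc7a5 -0.08, Slc3a2 -0.03), 18 heat shock genes (Hsp90ab1 0.03, Hsp90aa1 0.04) or 13 mitochondrial genome genes was called. Adding the third soft library gave 1 ATF4 gene higher and 1 heat shock gene lower, and still no mitochondrial gene.

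The study's lists of epiblast genes before and after implantation come from embryo data of other work and were also counted. Of 198 post-implantation genes tested, 6 fell (3.03%, against 0.432% of all genes) and none rose, with a median of -0.06. With all 3 soft libraries, where 1.35% of all genes fell, 16 fell and none rose. They included Ccnd1 and Cldn6, the netrin receptor gene Unc5b (-0.36 ± 0.07, edgeR adjusted p = 0.00199, or 0.058 without Soft80 replicate 2) and Bcam, a laminin-binding surface protein gene (-0.25 ± 0.06, edgeR adjusted p = 0.0142, and between 0.057 and 0.14 without Soft80 replicate 2 or 3 or Stiff80 replicate 1 or 3). Of 128 pre-implantation genes, 4 rose and 3 fell (5.47% called, against 0.841% of all genes), with a median of 0.00. With all 3 soft libraries, where 2.52% of all genes were called, 5 rose and 7 fell, so that the more frequent direction turned. Besides Esrrb, Etv4 and Dnmt3l, the named member was Trh, a neuropeptide precursor gene expressed in naïve mESCs. It was at 66.4, 61.5 and 73.5 CPM on soft and 44.1, 48.9 and 44.9 CPM on stiff gels, a rise of 0.55 ± 0.11 (edgeR adjusted p = 5.46e-04, or 0.14 without Soft80 replicate 3).

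**Figure D3:**
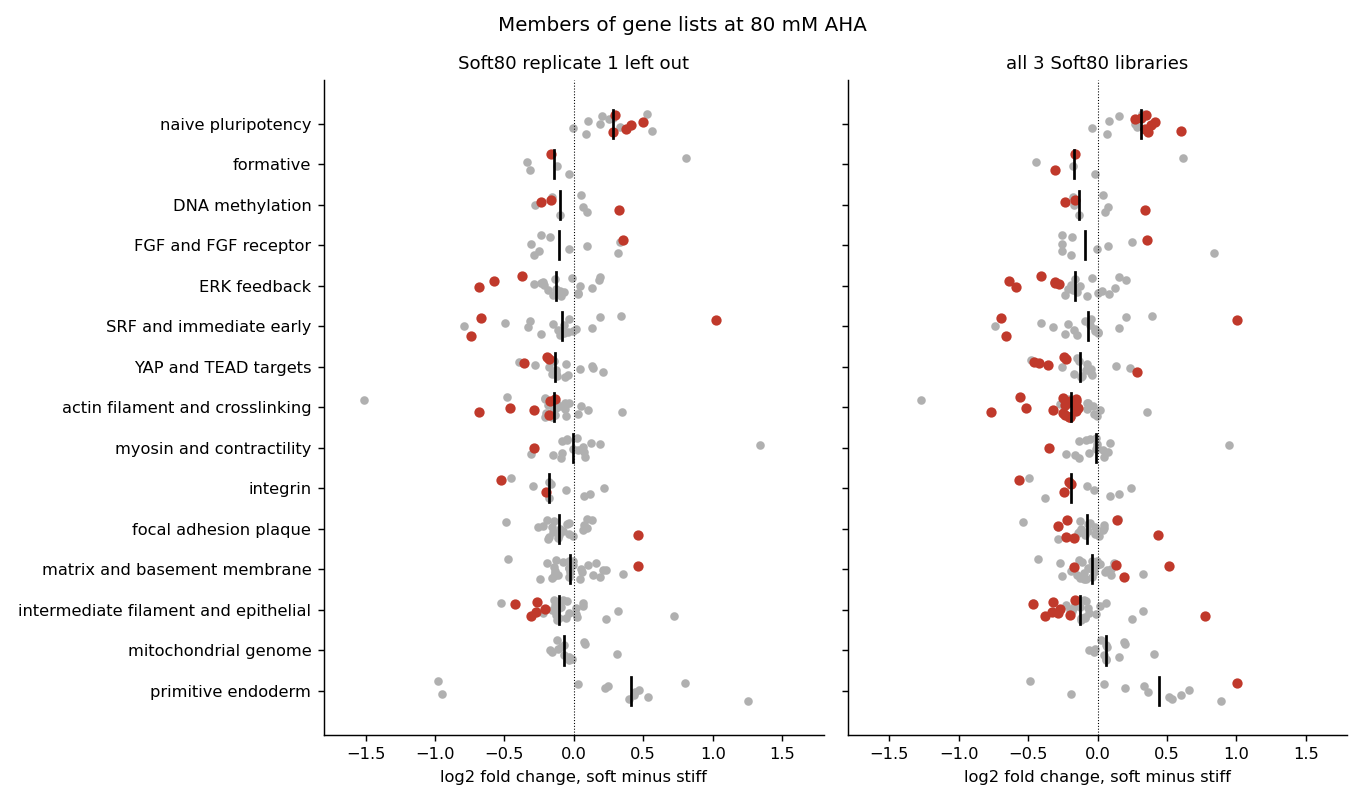
Log2 fold change, soft minus stiff, of each tested member of 15 gene lists (rows), without Soft80 replicate 1 (left) and with all 3 soft libraries (right). Red points passed the test and grey points did not, and the black bar is the median of the list, which for the actin list moved from -0.14 to -0.19 and for the mitochondrial genome from -0.07 to 0.06.

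Among called genes with a mean of at least 5 CPM, those with the largest fold changes were taken in each direction. On the lower side, they began with Pdgfrb, a growth factor receptor gene of mesenchymal cells, at 7.65, 2.88 and 3.15 CPM on soft and 7.68, 5.78 and 9.37 CPM on stiff gels. The library left out was at the level of the stiff gels, and with it the fold change of -1.35 ± 0.34 (edgeR adjusted p = 0.023) became -0.75 ± 0.29 and was not called (0.18). The adenylate cyclase gene Adcy7 was at 12.9, 8.47 and 7.88 CPM on soft and 14.9, 15.4 and 13.8 CPM on stiff gels. Here the library left out lay nearer to the stiff libraries but below all 3, and the fold change of -0.84 ± 0.23 had an edgeR adjusted p of 0.0471 that became 0.11. Bmp8b, a BMP ligand gene, and Cdcp1, which encodes a surface protein phosphorylated by SRC kinases, had fold changes of -0.79 ± 0.21 and -0.76 ± 0.16 (edgeR adjusted p = 0.0364 and 0.0014) and were called with all 3 libraries too. Itga3, Etv4, Vgf, Synpo2l, Csf1 and Dusp14, described above, completed the 10. Adcy7 lost its call without any 1 of the 5 libraries (edgeR adjusted p between 0.092 and 0.30), Pdgfrb without any but Stiff80 replicate 2 (between 0.059 and 0.21), Bmp8b without Soft80 replicate 3 or Stiff80 replicate 1 or 3 (between 0.15 and 0.53) and Cdcp1 without Soft80 replicate 2 (0.24).

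On the higher side, Fos was followed by Col9a2, a collagen chain gene of cartilage, at 28.0, 30.8 and 33.1 CPM on soft and 19.8, 16.6 and 18.2 CPM on stiff gels. Its rise of 0.80 ± 0.16 (edgeR adjusted p = 7.30e-04) and that of Renbp, an enzyme of amino sugar metabolism, with 55.4, 51.6 and 57.1 against 34.5, 38.6 and 26.9 CPM (0.71 ± 0.12, edgeR adjusted p = 4.43e-05), were called under all 18 alternatives. Sesn3, a stress-inducible inhibitor of mTORC1, rose by 0.68 ± 0.15, the complement regulator gene Cd55 by 0.67 ± 0.18 and the synaptotagmin gene Syt14 by 0.66 ± 0.15 (edgeR adjusted p = 0.00433, 0.0347 and 0.00494). Mcf2, a guanine nucleotide exchange factor gene, Uap1l1 and the zinc finger factor gene Zic2 rose by 0.63 ± 0.16, 0.56 ± 0.15 and 0.56 ± 0.14 (edgeR adjusted p = 0.0234, 0.0444 and 0.0277). All of these genes were also called with the third soft library. Leaving out Soft80 replicate 2 took the call from Sesn3 (edgeR adjusted p = 0.45), Syt14 (0.12), Cd55 (0.18), Mcf2 (0.12) and Zic2 (0.058), and leaving out Soft80 replicate 3 took it from Cd55 (0.19), Mcf2 (0.21), Uap1l1 (0.52) and Zic2 (0.34). Leaving out a stiff library took it from Cd55 (any of the 3), Mcf2 and Zic2 (replicate 2 or 3), Uap1l1 (replicate 1 or 2) and Sesn3 (replicate 1), with edgeR adjusted p between 0.054 and 0.27.

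At low and mid AHA, the soft minus stiff comparison called 408 (3.04%) and 384 genes (2.86%), against 113 at high AHA, or 339 with all 3 soft libraries. These comparisons share no library with that at high AHA, but all groups share 1 estimate of the spread, and each group there had 3 libraries. Of the 113 genes called at high AHA, 57 were called in the same direction at low AHA (50.4% of the 113 and 14.0% of the 408) and 68 at mid AHA (60.2% of the 113 and 17.7% of the 384). Of the 58 lower genes, 38 and 40 were shared with low and mid AHA, and of the 55 higher genes 19 and 28. Esrrb had fold changes of 0.28 at low, 0.47 at mid and 0.29 at high AHA, Nanog of 0.33, 0.30 and 0.50, Itga3 of -0.67, -0.52 and -0.53, and Vgf of -0.77, -0.63 and -0.74.

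A further 37 of the 113 genes, 24 higher and 13 lower, were called at neither low nor mid AHA. Among them were Nr5a2, Lefty1, Col9a2, Sesn3, Syt14, Cd55, Mcf2, Tns1 and Tcf7l1 on the higher and Dnmt3l, Ajuba, Wnt7b, Adcy7 and Pdgfrb on the lower side. Sesn3, for instance, had fold changes of 0.02 ± 0.14 at low, -0.05 ± 0.14 at mid and 0.68 ± 0.15 at high AHA. The difference itself was tested as the soft minus stiff effect at high AHA minus the mean of the effects at low and mid AHA, and none of the 37 passed that test. The lowest edgeR adjusted p among them was 0.13, so that no gene was shown to respond to stiffness at high AHA alone.

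The test of the difference was passed by 6 genes (0.0446%), all with a smaller soft minus stiff difference at high AHA than below it, while 845 genes had an unadjusted p under 0.05. Of the 6, 4 are on the actin filament list. Tagln, which encodes the actin-binding protein transgelin, was at 142 ± 8.45 CPM (mean ± SD, n = 3) on soft gels at low AHA, 132 ± 8.00 at mid AHA and 189 ± 10.7 (n = 2) at high AHA, while on stiff gels it was at 237 ± 20.6, 219 ± 14.1 and 218 ± 9.24. The soft minus stiff fold change was thus -0.73 and -0.72 at low and mid AHA but -0.20 ± 0.06 at high AHA, a difference of 0.53 ± 0.08 (edgeR adjusted p = 1.60e-06). Acta2, smooth muscle actin, went from -0.65 and -0.72 to -0.21 (difference 0.47 ± 0.09, edgeR adjusted p = 0.00124), and Tpm1 from -0.50 and -0.39 to -0.18 (difference 0.26 ± 0.05, edgeR adjusted p = 0.00124). Exons of other genes on the opposite strand cover 67.9% of the exonic bases of Tagln, so part of its counts may come from there, while Acta2 and Tpm1 have no such overlap.

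Caldesmon, encoded by Cald1, regulates the access of myosin to actin. On soft gels its gene was at 503.02 ± 44.8, 508 ± 22.9 and 649 ± 0.27 CPM at low, mid and high AHA, and on stiff gels at 719 ± 17.7, 675 ± 43.1 and 710.3 ± 15.3 CPM, a difference of 0.33 ± 0.06 between the effects (edgeR adjusted p = 4.48e-04). Phldb2, which encodes a protein that anchors microtubules near focal adhesions, had a difference of 0.44 ± 0.09 (edgeR adjusted p = 0.0112). The 6th gene, Myh10, the heavy chain of non-muscle myosin IIB, was named after its values were seen. Its fold change was -0.23 at low and -0.21 at mid AHA but 0.02 ± 0.04 at high AHA, a difference of 0.24 ± 0.05 (edgeR adjusted p = 0.0175). Between mid and high AHA, its mean rose from 635 to 684 CPM on soft gels and fell from 734 to 675 CPM on stiff gels. Of the 30 actin filament genes, 25 had a positive difference, with a median of 0.18 against 0.00 over all genes. Other lists leaned the same way, with medians of 0.19 for YAP and TEAD targets (16 of 20 positive) and 0.09 for matrix genes (24 of 30). The intermediate filament and epithelial list was at 0.05 (22 of 29). Some went the other way, such as the mitochondrial genome list at -0.11 (4 of 13).

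The library left out weakened this pattern. In all 6 genes it lay below the other 2 soft libraries at high AHA. For Tagln it was at 169 CPM beside 196 and 181 CPM, and for Cald1 at 568 CPM beside 649 and 649 CPM. With all 3 libraries, 8 genes passed the test, 7 with a positive and 1 with a negative difference, and 4 of them were among the 6. These were Tagln (0.48 ± 0.07, edgeR adjusted p = 7.65e-06), Acta2 (0.00371), Tpm1 (0.0425) and Myh10 (0.0444), but not Cald1 (0.12) or Phldb2 (0.0607). The 4 others, outside the rule for naming and picked for passing, were Hspg2 (0.23), Map1b (0.25), Myof (0.46) and Bcl2l14 (-1.61). Tagln and Acta2 were called under all 16 alternatives tried for this test. With 2 soft libraries, Tpm1 lost its call without Soft80 replicate 2 (edgeR adjusted p = 0.062), Phldb2 without Soft80 replicate 2 (0.27) or Stiff80 replicate 1 or 2 (0.051 and 0.11), and Myh10 without Soft80 replicate 2 or 3 (0.068 and 0.13) or Stiff80 replicate 2 or 3 (0.11 and 0.097). Cald1 kept its call without any 1 of the 5. Even with all 3 libraries, the fold changes at high AHA were smaller than at low and mid AHA, at -0.25 for Tagln, -0.25 for Acta2 and -0.19 for Cald1.

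**Figure D4:**
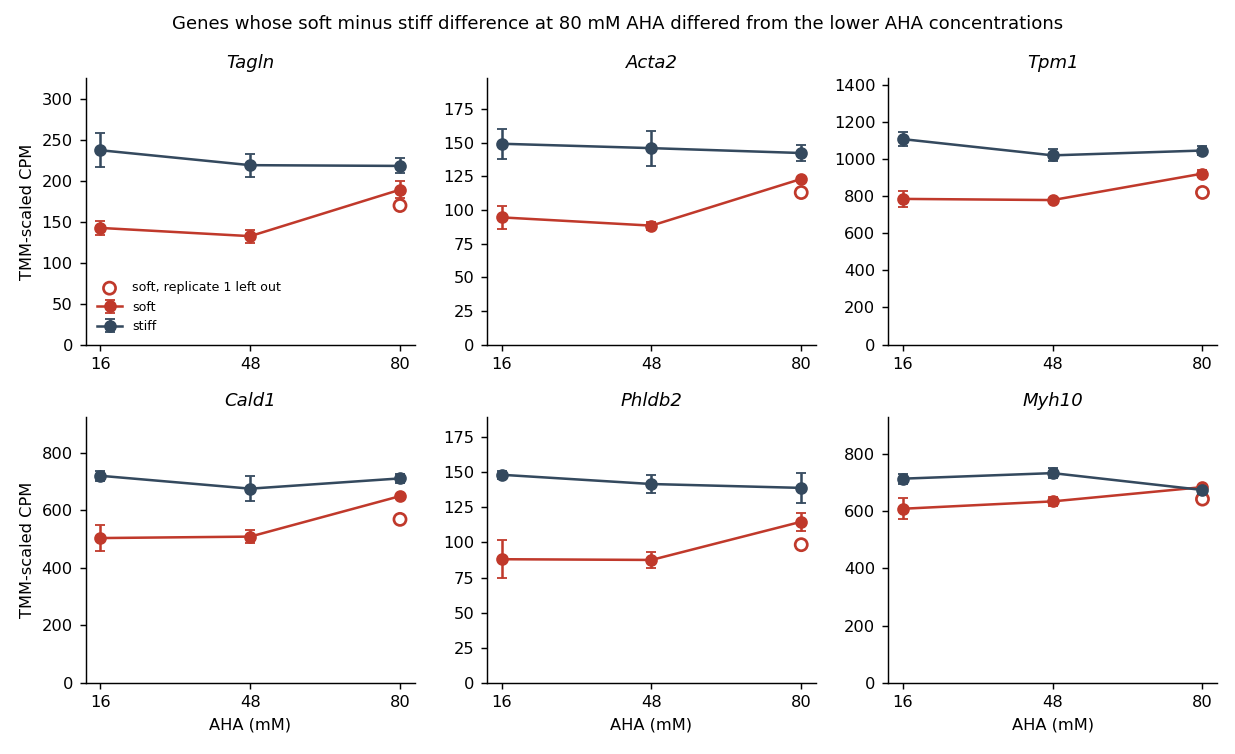
Level of the 6 genes in TMM-scaled CPM (vertical axis, from 0) against AHA concentration (mM), on soft (red) and stiff (dark blue) gels, as mean ± SD of 3 libraries, or of 2 for soft gels at 80 mM, where the open circle is the library left out. The soft line rises between 48 and 80 mM in each panel and comes closer to the stiff line, or crosses it for Myh10, whose stiff line also falls. At 80 mM, 5 of the 6 genes still have all soft libraries below all stiff ones.

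The lower genes shared by low and mid AHA give the wider view. Of the 180 genes called at both, 144 were lower at both, with a median fold change of -0.37 at low and -0.32 at mid AHA. Their median at high AHA was -0.18, or -0.22 with all 3 soft libraries, and 125 of the 144 were smaller in size at high AHA than at either of the others. The 36 genes higher at both had medians of 0.25 and 0.26 at low and mid and 0.20 at high AHA. Because these genes were chosen for passing at low and mid AHA, a smaller size in another comparison is favoured by that choice, and this is a description only.

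For the called genes, Soft80 replicate 1 mostly lay on the same side as the 2 libraries kept. It was outside the range of the 3 stiff libraries on that side in 54 of the 55 higher and 57 of the 58 lower genes, whose fold changes it had no part in, against 27.7% and 28.4% of all genes tested. The stiff libraries are the ones on which these genes were called, so this is a description. The 229 genes called only when it was added had moved the same way without it, with a median fold change of 0.26 in the 104 higher and -0.26 in the 125 lower genes, which became 0.28 and -0.30. These were chosen for passing with it. It was lower than the mean of the other 2 in 25 of the 30 actin filament genes (median difference -0.11) and in 24 of 29 intermediate filament and epithelial genes (-0.11), and higher in all 13 mitochondrial genome genes (0.34). The mt-Co1 level was 4577, 3776 and 3568 CPM on soft and 4108, 3212 and 3088 CPM on stiff gels, so that 1 stiff library was also high. The part of these shifts in the larger number of calls was not tested.

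**Figure D5:**
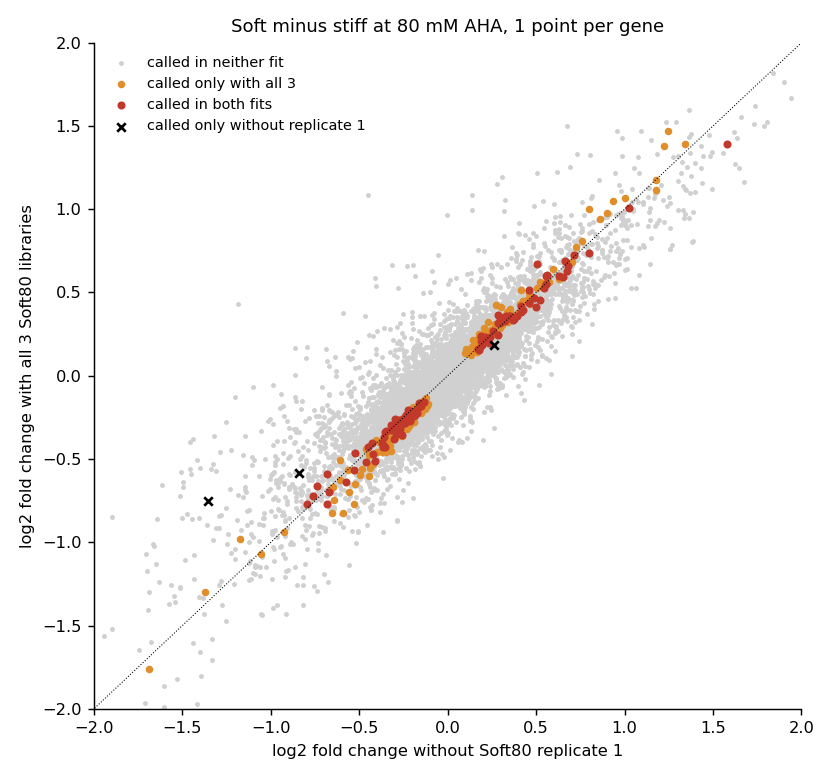
Log2 fold change, soft minus stiff, of each gene tested, without (horizontal axis) and with (vertical axis) Soft80 replicate 1. The 110 genes called in both (red) and the 229 called only with it (orange) lie along the diagonal, and the 3 called only without it are crosses; 15 genes, 5 of them called in at least 1 fit, fall outside the axes at 2 log2 units.

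The cells expressed the markers of mESCs in every library, and the 8 markers together summed to between 2103 and 2153 CPM on soft and between 1998 and 2066 CPM on stiff gels. The sum held members that moved in opposite directions. Nanog and Esrrb rose, while Utf1, a chromatin-bound factor of pluripotent cells named after its values were seen, fell, with 217, 232 and 209 CPM on soft and 258, 247 and 268 CPM on stiff gels (fold change -0.23 ± 0.06, edgeR adjusted p = 0.0234). In bulk samples, fewer cells of a type and less RNA per cell cannot be told apart. Markers of primitive endoderm were low, at the sums over 14 genes given beside Lama1, and 2 of the 3 soft libraries were above all stiff ones. None of the 12 tested was called, with a median of 0.41 and 10 of the 12 above 0, although Cubn was with all 3 soft libraries (1.00 ± 0.24, edgeR adjusted p = 0.00523). Single markers of the lineage differed. Ttr was at 0 in all 6 libraries and Sox17 at no more than 2.72 CPM, while Gata4, which encodes a defining factor of the lineage, was at 8.69, 4.79 and 7.68 CPM on soft and 3.69, 4.82 and 4.95 CPM on stiff gels. Pdgfra, a receptor gene that also marks it, was at 7.30, 4.15 and 6.70 CPM on soft and 3.38, 4.82 and 3.89 CPM on stiff gels, and Cubn at 17.7, 7.83 and 17.1 and 8.14, 5.06 and 7.43 CPM. Soft80 replicates 1 and 3 were above all stiff libraries for these 3 genes, chosen after their values were seen. Dab2, the marker of highest mean level, overlapped, at 22.4, 18.4 and 25.6 CPM on soft and 24.3, 18.1 and 20.9 CPM on stiff gels. Amn was at 2.95, 1.44 and 1.18 CPM on soft and 2.61, 4.10 and 1.41 CPM on stiff gels. Hnf4a was at 3.30, 0.80 and 1.38 CPM on soft and 2.61, 2.41 and 1.24 CPM on stiff gels, so that both overlapped as well. Trophoblast markers summed to between 233 and 257 CPM on soft and between 234 and 255 CPM on stiff gels, primitive streak and mesoderm markers to between 20.3 and 33.3 and between 24.4 and 33.3 CPM, and neural markers to between 144 and 157 and between 141 and 150.4 CPM, and none of the 9, 7 and 7 tested was called. Fibroblast markers, led by Col1a1, summed to between 286 and 302 CPM on soft and between 280 and 325 CPM on stiff gels. Pdgfrb was the 1 called of 7 tested, or none with all 3 soft libraries. The median fold change of the 7 was -0.27 at low and at mid AHA, with 2 called lower at each, and -0.01 at high AHA. In the test of the difference, 6 of the 7 were above 0 with a median of 0.55, and none passed. In the totipotent-like list 0 of 7 tested genes were called. The part of these markers in the results was not tested.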

How the data were processed

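RNA was sequenced from 18 mESC samples, 3 for each of 6 gel types, with a pico-input total RNA kit (Takara). According to the submitters' processing notes and the study's methods, the authors trimmed reads with Trim Galore 0.4.4, aligned them to mm10 (GRCm38) with GSNAP and assigned them to Ensembl genes with HTSeq. What was deposited are raw counts per gene, with no normalization. The table includes 92 ERCC and 7 SIRV spike-in rows and 5 summary rows, which stayed out of library sizes and tests. Summary rows held 61.5% to 63.9% of all reads listed for each of the 6 libraries, and reads not aligned alone 35.9% to 38.5%. Genes were named from GENCODE M21.

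Samples were grouped by their labelled condition. Protein-coding genes passing filterByExpr with a minimum count of 10 (13438 of 21519) were fitted with edgeR 4.0.16 in R 4.3.3 (TMM scaling, robust quasi-likelihood F test, 1 coefficient for each of 6 groups, 17 libraries, Benjamini-Hochberg adjustment). The biological coefficient of variation was 5.35%. With Soft80 replicate 1 kept, the same genes were fitted on 18 libraries. The ranges of ERCC shares cover libraries and not counting error, and intervals from counts would cover counting error only. DESeq2 1.42.0 was an alternative.

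Genes were named by rule: the 10 largest changes each way among called genes averaging 5 CPM or more; every member of the 3 pluripotency lists; in each other list the up to 4 called members with the lowest adjusted p, or the 2 of highest mean where none was called; and the 5 with the lowest adjusted p in the test of the difference. The members, the 32 lists and the rule were chosen with earlier results of these data known. Of 13438 tested genes, 10516 matched a RefSeq promoter by symbol. The fits were tested on simulated data. The result of 1 list is not reported here. Other settings are given in the closing section.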

Additional observations from a re-analysis of the deposited data

Results flagged for a closer look

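The effect of stiffness differed between high AHA and the mean of low and mid AHA in 6 genes, by edgeR's quasi-likelihood test of the difference itself. The difference in log2 fold change was 0.53 for Tagln, 0.33 for Cald1, 0.26 for Tpm1, 0.47 for Acta2, 0.44 for Phldb2 and 0.24 for Myh10. All 6 were lower on soft gels at low and at mid AHA and closer to the stiff level at high AHA. With all 3 soft libraries the values were 0.48, 0.27, 0.20, 0.43, 0.37 and 0.21, of which Cald1 and Phldb2 were no longer past the threshold. With Soft80 replicate 2 or 3 left out in place of replicate 1, only Tagln and Acta2 of the 6 were past it. The soft high AHA arm rests on 2 libraries here, and the part of the library left out was not tested.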

How the results depend on the processing

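The count of 113 genes at high AHA became 339 with all 3 soft libraries, 386 and 257 when Soft80 replicate 2 or 3 was left out in place of replicate 1, and 69 with DESeq2, all 69 of them among the 113. Leaving out 1 more library gave 44 to 103 genes. In settings chosen after seeing the data, all 3 soft libraries without Stiff80 replicate 1, 2 or 3 gave 246, 248 and 192 genes, and the Soft80 and Stiff80 libraries fitted alone with all 3 soft libraries gave 277. Other scalings, no filter, all annotated genes and the 2 groups alone gave 78 to 118. The 6 genes of the test of the difference became 8 with all 3 soft libraries, 4 of them among the 6, and 9 and 3 when Soft80 replicate 2 or 3 was left out in place of replicate 1, each with only 2 of the 6 (Tagln and Acta2), and 14 with no filter on low counts, and 4 to 10 when 1 more library was left out (10 without Soft80 replicate 2 or Stiff80 replicate 1), or 2 with all 3 soft libraries and without Stiff80 replicate 2. The counts at low and mid AHA stayed within 1.5 times. Of the 53 named genes that were called, none changed sign under the 18 alternatives, 784 of 954 values stayed past the threshold and 10 genes were called under every one. Of the 41 not called, 13 changed sign at least once without passing, and so did the medians of 15 of 32 lists. No paired analysis was possible because replicate numbers are in accession order and shared by no label. Where an arm is left with 1 library, it is assumed to vary like the other groups. The causes of these shifts were not tested. With 2 soft libraries, small changes and low genes are the ones most likely to be missed.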
